A study of Mus musculus with 4 samples.

Results

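The genes described here are 32 genes of the p53 pathway and of BCL2-family apoptosis, chosen by name and measured by RNA sequencing among 54446 genes in sorted endothelial cells, which form the inner lining of vessels, of the mouse retina. The libraries came from the series' 2 genotypes on the C57BL/6 strain at postnatal day 16, with 100 cells sorted by flow cytometry behind each library. The first genotype, with 2 libraries, is called Zeb1-CKO in the titles and Zeb1 knockdown in the genotype field, and targets the transcriptional repressor gene Zeb1. The other, with 2 libraries, is labelled control. The sources used here do not give the driver of any Cre, the litters or the number of animals pooled. The comparison asks how expression in these cells differs when Zeb1 is targeted. Every deposited level was read as FPKM, a unit inferred from the values. FPKM counts fragments per transcript length and per sequenced total.

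The protein p53, encoded by Trp53 in the mouse, is a transcription factor that accumulates after DNA damage and other stress, and its targets halt the cell cycle, repair DNA or start cell death. Its level is held down by the ubiquitin ligase Mdm2, itself a p53 target, together with Mdm4. Mitochondrial apoptosis is set by the BCL2 family: BH3-only proteins sense stress and bind the pro-survival members, Bax and Bak1 open the outer mitochondrial membrane, and released cytochrome c lets Apaf1 activate Casp9. In the eye, endothelial apoptosis is best known from the regression of the hyaloid vessels after birth.

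The targeted gene, Zeb1, had 8.66 and 7.07 FPKM in Zeb1-CKO libraries, against 10.7 and 11.1 FPKM in controls, a log2 difference of -0.43 with limma's adjusted p at 0.235. Values per gene do not show which exons are left, so this is a weak check of the labels. Depth estimated from the steps between low values was 21.95 and 16.78 M fragments in the Zeb1-CKO libraries and 20.60 and 11.22 M in the controls. For replicate 2 of each genotype, smaller steps held more of the low values and would give 33.5 M in Zeb1-CKO and 22.37 M in control, so these depths are uncertain to that extent. All 12 endothelial markers were detected in every library, with sums of 4468 to 4881 FPKM in Zeb1-CKO libraries and 3980 to 4727 FPKM in controls. Other cell types were present too. The 12 pericyte and smooth-muscle markers summed to 1746 to 1936 FPKM in Zeb1-CKO libraries and 2179 to 2664 FPKM in controls, with 11 of 12 lower in both Zeb1-CKO libraries than in both controls and none at 0. The 5 red-cell genes summed to 745 to 1409 FPKM in Zeb1-CKO libraries and 2727 to 3298 FPKM in controls, with all 5 lower in this way. Microglial sums overlapped, at 96.6 to 112 FPKM in Zeb1-CKO libraries and 72.8 to 143 FPKM in controls, with 6 of 12 lower in both Zeb1-CKO libraries than in both controls, 2 higher and Aif1 listed at 0 in 1 library. The median log2 fold change of the 9 fitted microglial markers was -1.20. The 10 glial markers summed to 505 to 521 FPKM in Zeb1-CKO libraries and 464 to 486 FPKM in controls, with 5 of 10 higher in both Zeb1-CKO libraries, 1 lower and Aqp4 listed at 0 in both controls. The 11 photoreceptor markers summed to 56.2 to 63.5 FPKM in Zeb1-CKO libraries and 11.6 to 105 FPKM in controls, with all 11 overlapping and Arr3 listed at 0 in 1 control. The glial sums were higher in Zeb1-CKO libraries, as were the called genes that rose, and the part of glial RNA in those rises was not tested. In bulk libraries such as these, fewer cells of a type and less RNA per cell cannot be told apart.

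Bik, Pmaip1 and Plk3 rose and Cdkn1a fell in Zeb1-CKO cells, while Trp53 itself and 27 other genes did not pass the test. All 32 genes averaged 1 FPKM or more, the minimum for the fit, so none was left out for a low level. By limma on log2(FPKM + 1), two-sided, with Benjamini-Hochberg adjusted p under 0.05 over 13651 genes, 3 of 32 rose, against 2.23% of all fitted genes, and 1 of 32 fell, against 0.901%, so 4 were called in all, against 3.13%. At an unadjusted p under 0.05, 6 were higher, against 10.5% of all fitted genes, and 3 were lower, against 7.35%, which together make 28.1% of the 32, against 17.9%. Both Zeb1-CKO libraries lay above both controls for 15 genes, against 27.1% of all fitted genes, and below both for 10, against 22.3%, so 78.1% did not overlap, against 49.4%. The median log2 fold change was 0.09, against 0.02 over all fitted genes. Most differences were small on the log2(FPKM + 1) scale, with 23 of 32 under 0.5 in either direction and 2, those of Bik and Pmaip1, of at least 1. This scale understates changes of low genes. By the ratio of mean FPKM, Fas was 2.34-fold lower and Gdf15 2.26-fold higher in Zeb1-CKO libraries, and neither passed the test. Of the 4 calls, 3 had an adjusted p between 0.0437 and 0.0495, just under the threshold.

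**Figure D1:**
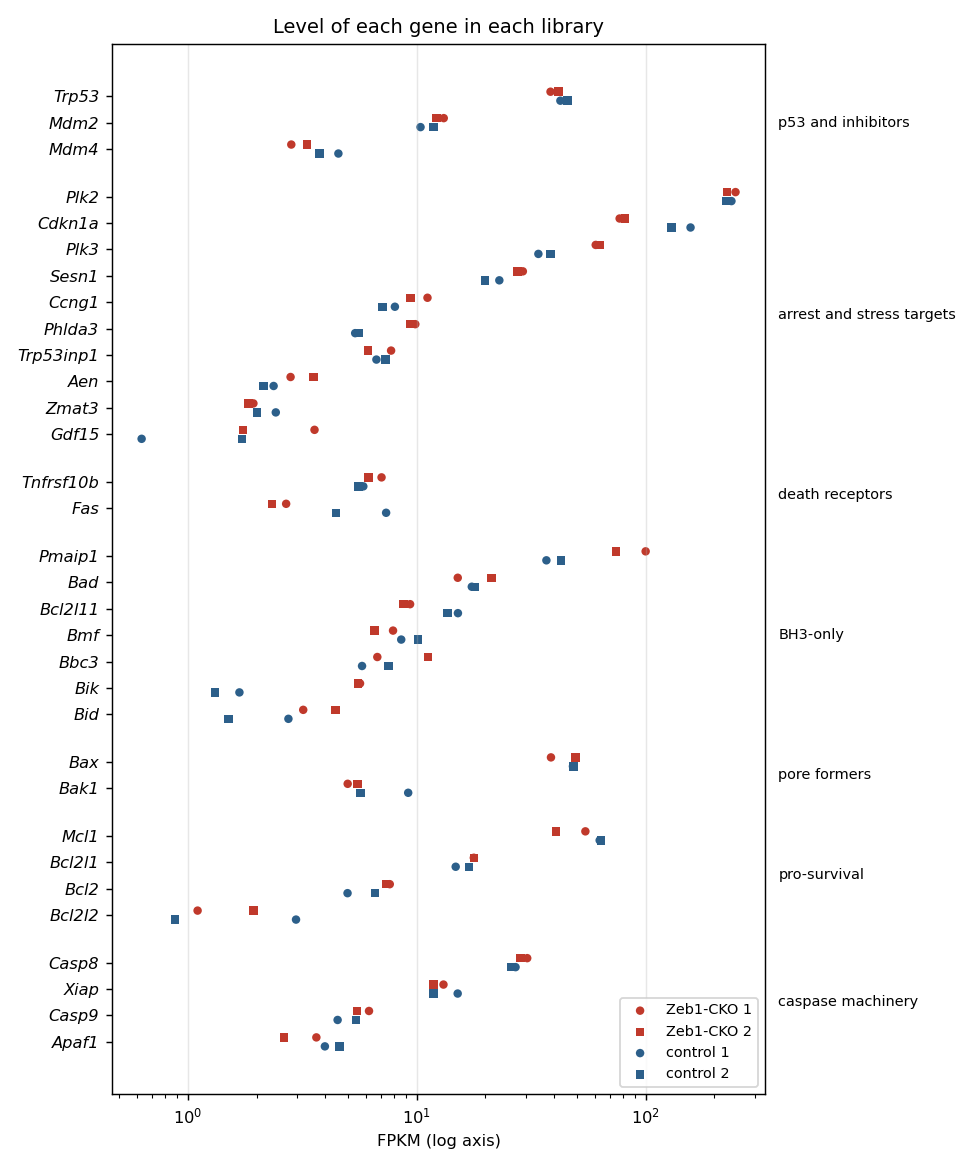
Level of each of the 32 genes in FPKM on a log axis, with genes grouped by role down the page and 1 point per library (red, Zeb1-CKO; blue, control; circles, replicate 1; squares, replicate 2). Levels span from 1.73 FPKM for Bcl2l2 to 234 FPKM for Plk2 as means of the 4 libraries, and the 2 colours do not overlap for Bik, Pmaip1, Plk3 and Cdkn1a, among 25 of the 32 genes.

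The genes covered a wide range of levels. Mean FPKM over the 4 libraries ran from 1.73 for Bcl2l2 to 234 for Plk2, with a median of 8.05 against 5.49 over all fitted genes. The p53-inducible and stress-inducible genes Plk2, Cdkn1a, Pmaip1, Mcl1 and Plk3 were the most abundant of the 32.

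p53 and its inhibitors did not pass the test. Trp53 was at 38.5 and 41.7 FPKM in Zeb1-CKO libraries and at 42.5 and 45.7 FPKM in controls, a log2 fold change of -0.13 with a 95% interval of -0.46 to 0.19 and limma's adjusted p at 0.653. Its message was thus among the more abundant of the group, and the libraries of the genotypes lay close together without overlapping. Mdm2, the ligase that marks p53 for degradation, was at 13.1 and 12.2 FPKM in Zeb1-CKO libraries and 10.4 and 11.9 FPKM in controls (log2 fold change 0.18, 95% interval -0.18 to 0.53, adjusted p = 0.584, limma). Mdm4, its partner that masks the activation domain of p53, had a log2 fold change of -0.34 at an adjusted p of 0.375.

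Cdkn1a and Plk3, both induced by p53 and by other stress, went opposite ways. Cdkn1a encodes p21, the inhibitor of cyclin-dependent kinases through which p53 halts the cycle, and lies on chromosome 17 from 29090976 to 29100727 (mm10, GENCODE M21). It was at 77.1 and 81.3 FPKM in Zeb1-CKO libraries and at 157 and 130 FPKM in controls. The control libraries differed from each other by more than the Zeb1-CKO libraries did, but both were well above them. The fall was 1.81-fold, with a log2 fold change of -0.84 (SE 0.15) and limma's adjusted p at 0.0494. Plk3, a polo-like kinase of the stress response (chromosome 4, 117128655 to 117133963), was at 60.6 and 62.8 FPKM in Zeb1-CKO libraries and 34.0 and 38.4 FPKM in controls. Replicates of each genotype were close, and the rise was 1.70-fold, with a log2 fold change of 0.75 (SE 0.13) and limma's adjusted p at 0.0495. Leaving out any 1 of the 4 libraries ended both calls, at adjusted p between 0.0659 and 0.203 for Cdkn1a and 0.0941 and 0.212 for Plk3 and log2 fold changes of -0.98 to -0.70 and 0.67 to 0.84. Plk3 also missed the threshold under quantile normalization (adjusted p = 0.0604) and median-ratio scaling (0.0516). Cdkn1a was lower in both Zeb1-CKO libraries, like 11 of 12 pericyte and smooth-muscle markers, all 5 red-cell genes and 6 of 12 microglial markers. Between the controls, Cdkn1a and the pericyte and smooth-muscle sum were higher in replicate 1, and the red-cell and microglial sums in replicate 2. The part of these cell types in the fall of Cdkn1a was not tested. Exons of Cdkn1a share 273 of 3553 bases with the antisense locus AC167363.2, which libraries without strand cannot separate, but that locus had a mean of 0.581 FPKM against 111 for Cdkn1a.

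The sequences just upstream of the annotated starts of these 2 genes are shown because they are the called genes, one lower and one higher, with a window in the RefSeq table (GRCm38.p6). Each runs 5′ to 3′ on the gene's strand and ends 11 bases before the start. Capitals mark matches to the p53 half-site consensus in Cdkn1a (chr17:29090729-29090968, plus strand) and to the E-box CACCTG or its reverse complement CAGGTG, the kind of site ZEB1 is known to bind, in Plk3 (chr4:117133974-117134213, minus strand).
Cdkn1a: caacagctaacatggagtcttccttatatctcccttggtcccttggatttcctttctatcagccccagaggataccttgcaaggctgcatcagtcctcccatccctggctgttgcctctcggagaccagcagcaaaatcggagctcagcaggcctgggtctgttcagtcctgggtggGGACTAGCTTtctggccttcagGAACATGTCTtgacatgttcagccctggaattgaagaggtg
Plk3: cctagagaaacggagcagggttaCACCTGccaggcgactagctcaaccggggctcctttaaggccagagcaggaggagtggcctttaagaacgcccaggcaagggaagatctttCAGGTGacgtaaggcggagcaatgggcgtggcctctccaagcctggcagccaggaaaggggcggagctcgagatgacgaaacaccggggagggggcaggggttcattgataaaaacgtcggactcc
Matches were counted on both strands in the 250 bases before each start, for the 22 of 32 genes with a window within 100 bases of the deposited start. A p53 half-site match was found in 5 of the 22, those of Trp53, Mdm2, Cdkn1a, Ccng1 and Bax, against 7.1% of all 32851 windows. The CACCTG match was found in 2 of the 22, Plk3 and Bad, against 17.2% of all windows. Cdkn1a held 2 half-sites, the nearer beginning 51 bases before the start, and Plk3 held 2 E-boxes, beginning 227 and 136 bases before it. A second RefSeq start of Cdkn1a lies 2790 bases downstream, and the window before it held no half-site and 1 CACCTG match. These matches are letters in the reference sequence and no binding was measured.

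The other targets for arrest and stress were mixed, with 7 of 10 in this group higher on the log2 scale, 3 lower and a median of 0.37. Phlda3, which blocks membrane recruitment of Akt, was at 9.88 and 9.40 FPKM in Zeb1-CKO libraries and 5.39 and 5.57 FPKM in controls. Its libraries were tightly grouped by genotype, 1.76-fold apart, and limma's adjusted p of 0.0604 just missed the threshold. Sesn1, a sestrin that restrains mTORC1, was at 29.1 and 27.6 FPKM in Zeb1-CKO libraries and 23.0 and 19.9 FPKM in controls (adjusted p = 0.232, limma). Ccng1, the p53-induced cyclin G1, was at 11.2 and 9.40 FPKM in Zeb1-CKO libraries and 8.04 and 7.10 FPKM in controls (adjusted p = 0.272, limma). Phlda3, Sesn1 and Ccng1 all lay higher in both Zeb1-CKO libraries, while Cdkn1a, a target of the same factor, lay lower in both. Plk2, the most abundant of the 32, was at 247 and 227 FPKM in Zeb1-CKO libraries and 237 and 226 FPKM in controls, which overlapped, with a log2 fold change of 0.03 (95% interval -0.29 to 0.35). Of the other 4, the secreted cytokine gene Gdf15 had a log2 fold change of 0.75 (adjusted p = 0.347) and the exonuclease gene Aen 0.35. Trp53inp1, a stress-induced p53 cofactor, and Zmat3, an RNA-binding zinc finger, were at -0.02 and -0.15.

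Death receptors did not pass the test. Fas, the receptor for Fas ligand and a p53 target, was at 2.69 and 2.34 FPKM in Zeb1-CKO libraries and at 7.36 and 4.44 FPKM in controls. The controls differed widely from each other, yet both were above both Zeb1-CKO libraries, and the log2 fold change of -0.94 (SE 0.24) had an adjusted p of 0.115 by limma. With 1 library left out, the adjusted p was between 0.0545 and 0.377 and the log2 fold change between -1.25 and -0.63. Like Cdkn1a, Fas was lower in both Zeb1-CKO libraries, as were most pericyte and smooth-muscle markers, the red-cell genes and 6 of the 12 microglial markers. Between the controls, Fas and the pericyte and smooth-muscle sum were higher in replicate 1, and the red-cell and microglial sums in replicate 2. The part of these cell types in the level of Fas was not tested. Tnfrsf10b, the mouse receptor for TRAIL, was at 7.03 and 6.18 FPKM in Zeb1-CKO libraries and 5.85 and 5.58 FPKM in controls (log2 fold change 0.18, 95% interval -0.19 to 0.54).

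Among the 7 BH3-only genes, Bik and Pmaip1 rose, none fell and 5 did not pass. Bik encodes a BH3-only protein of the endoplasmic reticulum and lies on chromosome 15 from 83526862 to 83544634. It was at 5.66 and 5.54 FPKM in Zeb1-CKO libraries and at 1.68 and 1.32 FPKM in controls. This 3.73-fold rise was the largest log2 fold change of the 32, at 1.40 (SE 0.17, limma's adjusted p = 0.0173), and its replicates were close within each genotype. For a Bik transcript of 1335 bases, 1 estimated fragment is worth 0.0341 and 0.0446 FPKM in the Zeb1-CKO libraries and 0.0364 and 0.0667 FPKM in controls, or 0.0224 FPKM in Zeb1-CKO replicate 2 and 0.0335 FPKM in control replicate 2 at the smaller steps. The call was kept without control replicate 1 or 2 and ended without Zeb1-CKO replicate 1 (adjusted p = 0.131) or 2 (0.128), at log2 fold changes of 1.39 and 1.42. Pmaip1 encodes Noxa, which binds Mcl1 and promotes its degradation, and starts at position 66458604 of chromosome 18 by the deposited table. It was at 100.1 and 74.4 FPKM in Zeb1-CKO libraries and at 36.9 and 42.8 FPKM in controls. The Zeb1-CKO libraries differed from each other more than the controls did, and the rise was 2.19-fold, with a log2 fold change of 1.10 (SE 0.19, limma's adjusted p = 0.0437). That call ended without any 1 library, with adjusted p of 0.0773 to 0.166 and log2 fold changes of 0.89 to 1.31, and it also missed the threshold under quantile normalization (adjusted p = 0.0596) and median-ratio scaling (0.0512).

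**Figure D2:**
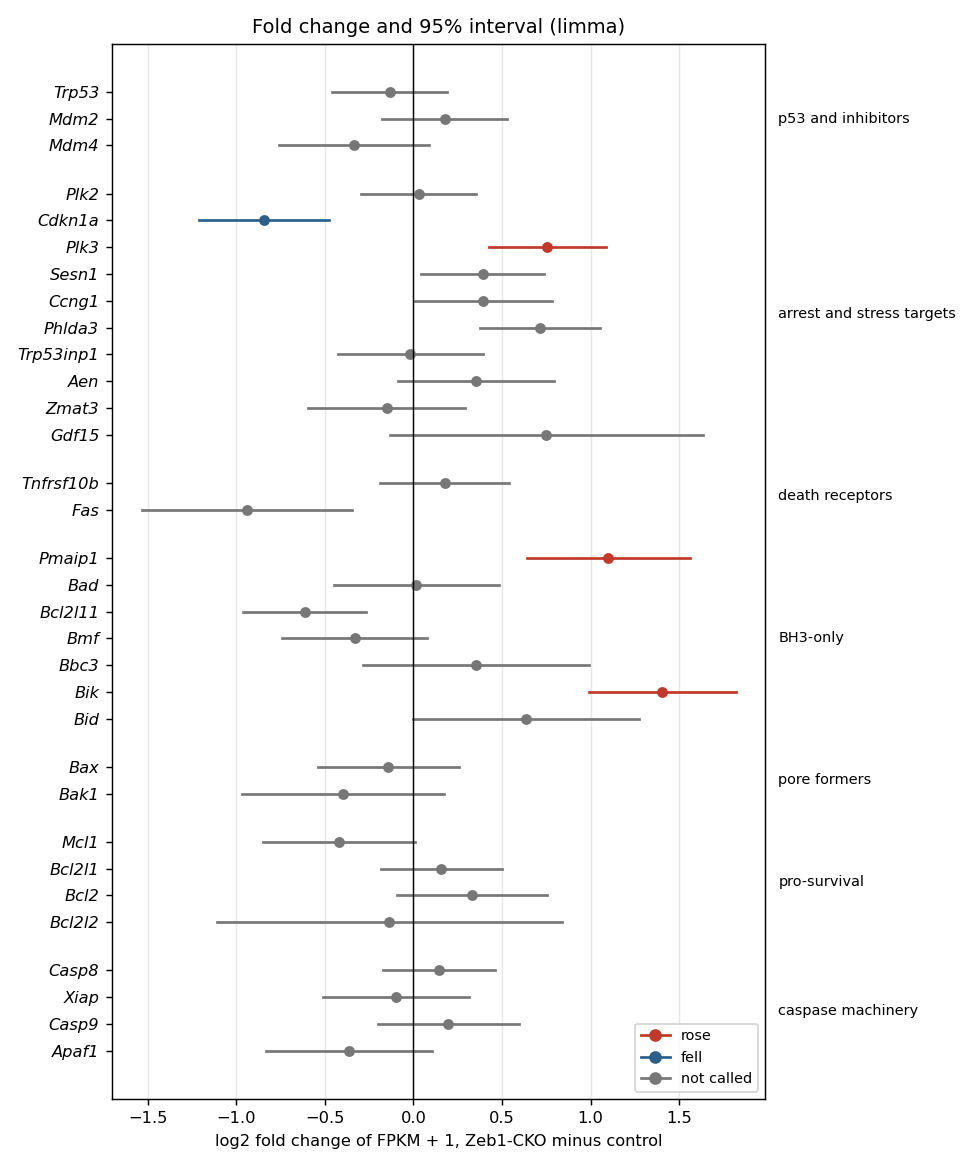
Log2 fold change of FPKM + 1, Zeb1-CKO minus control, for each of the 32 genes (points) with its 95% interval from limma (lines), grouped by role down the page. Red marks genes that rose, blue the gene that fell and grey those not called; the intervals of Bik (0.99 to 1.82) and Pmaip1 (0.64 to 1.56) lie farthest to the right.

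The other 5 BH3-only genes did not pass the test, and the fitted log2 fold changes of the 7 were positive in 5 and negative in 2, Bcl2l11 and Bmf. Bcl2l11 encodes Bim, which binds all pro-survival members and drives death of endothelial cells after loss of growth factors. It was at 9.37 and 8.75 FPKM in Zeb1-CKO libraries and at 15.2 and 13.7 FPKM in controls, with limma's adjusted p at 0.0905 and a log2 fold change of -0.61. Its libraries were separated by genotype with a gap larger than the spread within either. Bad, a BH3-only protein held inactive by phosphorylation, was at 15.1 and 21.2 FPKM in Zeb1-CKO libraries and 17.4 and 18.0 FPKM in controls, which overlapped. Bbc3, encoding the strong p53-induced killer Puma, had a log2 fold change of 0.35 with overlapping libraries. Bid, cut by Casp8 to link death receptors to mitochondria, was at 0.64 (adjusted p = 0.280) with both Zeb1-CKO libraries above both controls, and Bmf, a BH3-only protein tied to the cytoskeleton, at -0.33. Bid is uncertain because 628 of its 3550 exon bases are shared with the antisense gene Bcl2l13, whose mean of 5.65 FPKM exceeds that of Bid, 2.97. Summed over the 7 genes, BH3-only FPKM was 148 and 132 in Zeb1-CKO libraries and 88.3 and 94.99 in controls. Without Pmaip1 the sums were 48.0 and 57.7 in Zeb1-CKO libraries and 51.4 and 52.2 in controls, which overlapped. The difference in the summed level thus lay in Pmaip1, which made up 67.6% and 56.3% of the sum in Zeb1-CKO libraries and 41.8% and 45.1% in controls.

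The pore formers and the pro-survival members did not pass the test. Bax was at 38.6 and 49.4 FPKM in Zeb1-CKO libraries and 48.2 and 48.4 FPKM in controls, and Bak1 at 5.003 and 5.53 FPKM in Zeb1-CKO libraries and 9.19 and 5.68 FPKM in controls. Bax was the main pore former by level in every library, and its genotypes overlapped. Mcl1, the short-lived pro-survival protein that Noxa targets, was the most abundant of its 4 genes, at 54.6 and 40.7 FPKM in Zeb1-CKO libraries and 63.1 and 63.7 FPKM in controls. Both Zeb1-CKO values were below both controls, with a log2 fold change of -0.42 (95% interval -0.85 to 0.01) and limma's adjusted p at 0.289. Bcl2l1, encoding Bcl-xL, was at 17.8 and 17.9 FPKM in Zeb1-CKO libraries and 14.8 and 16.98 FPKM in controls (log2 fold change 0.16, 95% interval -0.19 to 0.50). Bcl2, the founding member of the family, was at a log2 fold change of 0.33 (adjusted p = 0.382), and Bcl2l2, encoding Bcl-w, had overlapping libraries and the widest interval of the 4, from -1.11 to 0.84. Bcl2l2 is uncertain, since 594 of its 4462 exon bases lie also in Gm20521 on the same strand, which had a mean of 2.06 FPKM. The ratio of Bax plus Bak1 to the sum of the 4 pro-survival genes was 0.538 and 0.810 in Zeb1-CKO libraries and 0.668 and 0.614 in controls, which overlapped.

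Because Noxa acts on Mcl1, their levels were also set side by side, a ratio chosen after the values were seen and given with no test. Pmaip1 over Mcl1 in FPKM was 1.83 and 1.83 in Zeb1-CKO libraries and 0.585 and 0.671 in controls. Zeb1-CKO libraries thus held more Pmaip1 than Mcl1 message per length, and controls held less. Cdkn1a over Mdm2, both p53 targets and chosen in the same way, was 5.86 and 6.65 in Zeb1-CKO libraries and 15.1 and 10.9 in controls. With 2 libraries per genotype an exact permutation test cannot give a p below 0.333.

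**Figure D3:**
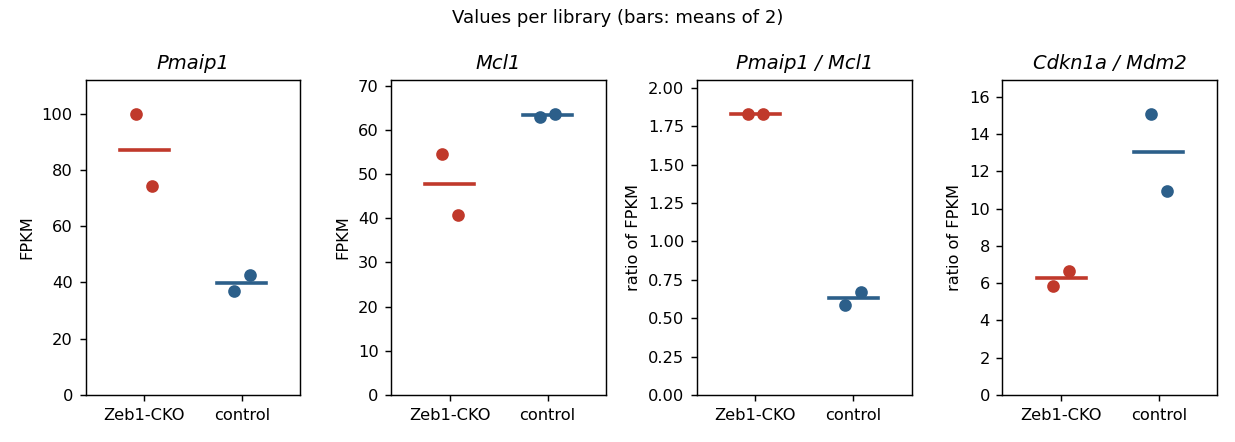
Pmaip1 and Mcl1 in FPKM, and the ratios of Pmaip1 to Mcl1 and of Cdkn1a to Mdm2, with 1 point per library and bars at the mean of 2 (red, Zeb1-CKO; blue, control). The Pmaip1 to Mcl1 ratio is 1.83 in both Zeb1-CKO libraries and 0.585 and 0.671 in controls.

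Genes of the caspase machinery were close between genotypes. Casp8, the initiator caspase of death receptors, was at 30.4 and 28.5 FPKM in Zeb1-CKO libraries and 27.1 and 26.0 FPKM in controls (log2 fold change 0.14, 95% interval -0.17 to 0.46). Xiap, an inhibitor of caspases, was at 13.1 and 11.8 FPKM in Zeb1-CKO libraries and 15.1 and 11.9 FPKM in controls. Casp9, the initiator of the mitochondrial route, and Apaf1, its scaffold, had log2 fold changes of 0.20 and -0.36, with limma's adjusted p at 0.584 and 0.387.

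The calls of this group rested on few libraries, and the fit was repeated with each library left out. A fit without 1 library has less data, so a call can end while the fold change stays similar. For the 9 genes with an unadjusted p under 0.05, the direction was fixed in advance, because their libraries do not overlap between genotypes. Without either Zeb1-CKO library none of the 32 passed by limma, and without either control library only Bik did; all 9 genes with an unadjusted p under 0.05 kept their direction in these 4 fits.

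**Figure D4:**
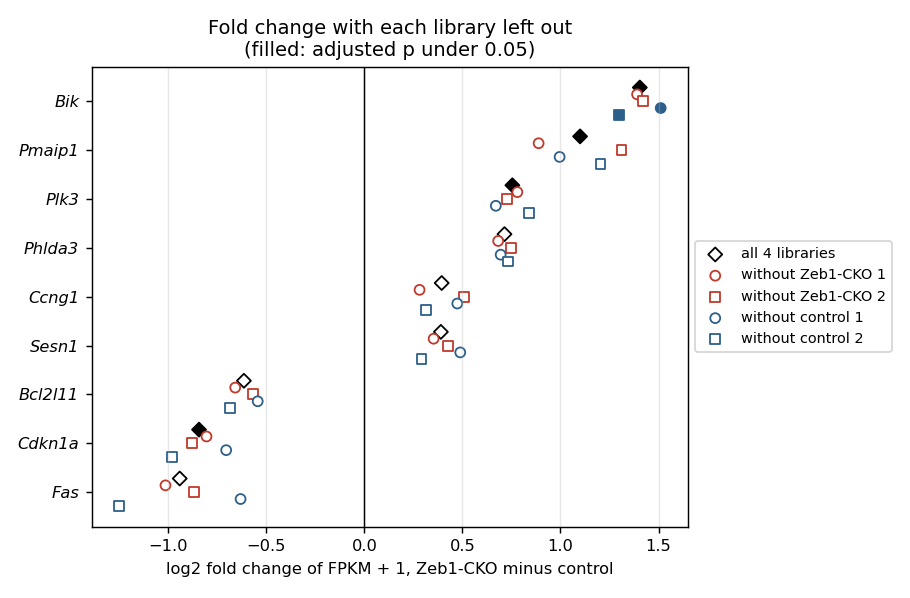
Log2 fold change of FPKM + 1, Zeb1-CKO minus control, for the 9 genes with an unadjusted p under 0.05, with all 4 libraries (diamonds) and with each library left out (red, a Zeb1-CKO library left out; blue, a control; circles, replicate 1; squares, replicate 2). Filled symbols have an adjusted p under 0.05. No symbol crosses 0, which was fixed in advance because the libraries of these 9 genes do not overlap between genotypes.

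Of 25 further p53 targets, a list chosen with earlier results of these data known, 21 were fitted. Of these, 4 rose, against 2.23% of all fitted genes, none fell, against 0.901%, and 17 did not pass. The median log2 fold change was 0.14, against 0.02 over all fitted genes. Cyfip2, a subunit of the WAVE actin regulator, was at 16.2 and 16.9 FPKM in Zeb1-CKO libraries and 4.69 and 5.37 FPKM in controls (log2 fold change 1.54, limma's adjusted p = 0.00792). Perp, a tetraspan protein of desmosomes that is also induced by p63 in epithelia, was at 10.97 and 10.6 FPKM in Zeb1-CKO libraries and 4.03 and 2.58 FPKM in controls (1.47, adjusted p = 0.0239). Both gaps were much larger than the spread within a genotype. Ddb2, a damage sensor of nucleotide excision repair, was at 6.63 and 6.91 FPKM in Zeb1-CKO libraries and 2.67 and 3.18 FPKM in controls (0.99, adjusted p = 0.0361). Cd82, a tetraspanin, was at 88.4 and 89.9 FPKM in Zeb1-CKO libraries and 49.2 and 55.5 FPKM in controls (0.76, adjusted p = 0.0482). None of the 4 passed without Zeb1-CKO replicate 1 (adjusted p of 0.0855 to 0.191) or without Zeb1-CKO replicate 2 (0.0801 to 0.199), and Cyfip2 and Perp passed without either control. Without control replicate 1 or 2, Ddb2 was at an adjusted p of 0.101 or 0.0669 and Cd82 at 0.137 or 0.0908. Cd82 also missed the threshold under quantile normalization (0.0576) and median-ratio scaling (0.0512).

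None of the 8 fitted of 11 upstream regulators of p53 passed limma's threshold, against 3.13% of all fitted genes. At an unadjusted p under 0.05 there was 1, Usp7, against 17.9%. Usp7, a deubiquitinase of Mdm2 and p53, was at 7.75 and 10.8 FPKM in Zeb1-CKO libraries and 14.4 and 14.3 FPKM in controls (adjusted p = 0.178), and the acetyltransferase gene Kat5 at 24.0 and 26.5 FPKM in Zeb1-CKO libraries and 22.6 and 21.3 FPKM in controls. Of 28 further apoptosis genes, 25 were fitted and none passed, against 3.13% of all fitted genes. At an unadjusted p under 0.05 there were 4, against 17.9%, and the median log2 fold change was 0.07. The 2 most abundant were Bok, a BAX-like member, and Tnfrsf1a, the main TNF receptor. Bok was at 65.4 and 137 FPKM in Zeb1-CKO libraries and 58.3 and 140.4 FPKM in controls, high in the second replicate of both genotypes. Tnfrsf1a was at 78.7 and 69.9 FPKM in Zeb1-CKO libraries and 68.9 and 70.3 FPKM in controls.

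Cdkn1a, Plk2, Plk3, Mcl1 and Pmaip1 are also induced by general stress, so 28 immediate-early and heat-shock genes, of which Btg2 is also among the further p53 targets, were measured beside them. Their sums overlapped, at 8400 and 8091 FPKM in Zeb1-CKO libraries and 8200 and 8833 FPKM in controls, of which Fos alone gave 2064 and 1914 FPKM in Zeb1-CKO libraries and 2077 and 2064 FPKM in controls. Of the 28, 13 were lower and 4 higher in both Zeb1-CKO libraries than in both controls, and 11 overlapped. Over all fitted genes, 22.3% were lower and 27.1% higher in this way. Of 27 fitted, Fosl1, an AP-1 subunit, rose, against 2.23% of all fitted genes, none fell, against 0.901%, and 26 did not pass. At an unadjusted p under 0.05 there were 9, against 17.9%. Log2 fold changes were negative in 18 and positive in 9, with a median of -0.13. Fosl1 was at 18.8 and 19.8 FPKM in Zeb1-CKO libraries and 2.95 and 3.97 FPKM in controls (log2 fold change 2.20, limma's adjusted p = 0.00382), and missed the threshold without Zeb1-CKO replicate 1 (0.0534) or 2 (0.0595).

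**Figure D5:**
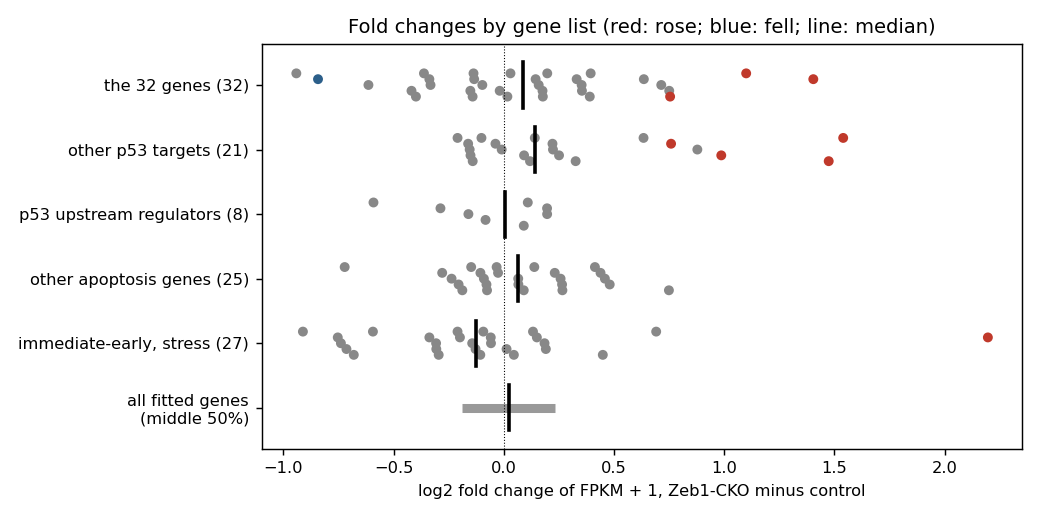
Log2 fold change of FPKM + 1, Zeb1-CKO minus control, for the fitted genes of each list (points; red, rose; blue, fell; grey, not called) with the list's median (black line), above the middle 50% of all fitted genes (thick bar). Medians range from -0.13 for immediate-early and stress genes to 0.14 for the other p53 targets. The middle 50% of all fitted genes, -0.19 to 0.23, is a range of single genes, so it cannot test the median of a list.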

How the data were processed

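RNA was sequenced from 2 Zeb1-CKO and 2 control libraries. Per the labels' protocols, the cDNA kit was SMART-Seq v4, which does not mark strand. The authors deposited FPKM per gene, made per the submitters' processing notes, with Trimmomatic 0.36, HISAT2 2.1.0 and StringTie 1.3.3 on mm10; the unit was read from the values, and the sources used here give no settings.

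In R 4.3.3, limma 3.58.1 was run with an intensity trend on log2(FPKM + 1) for the 13651 genes averaging 1 FPKM or more; this scale understates changes of low genes. The labels do not say whether each library is a separate animal, so the p-values cover the variation among these 4 samples alone, and that may be technical. A simulated set of 13651 genes, with 100 changed at each size, gave 9 of 100 genes at a log2 change of 1 and 87 of 100 at 2, with 2 false calls. It gave 98 calls in all, against 427 in the data, so its recovery need not hold for the data. FPKM hold no counts. Depth was estimated from the spacing of low values in genes with 1 transcript over 600 bases, of which 20.3% to 27.7% lay within 0.02 of a whole step, against 4% by chance; a step was taken as 1 fragment. The step used was the largest holding at least 70% of the best step's share, a level lowered after the first estimates were seen and with an earlier depth estimate known; the best steps held 25.6% in Zeb1-CKO replicate 2 and 30.1% in control replicate 2. Depth enters no test.

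The genes and lists were chosen with earlier results of these data known. Values are printed for genes past the threshold or with an unadjusted p under 0.05 and the 2 most abundant of each role; in other lists, for called genes or the 2 most abundant. GENCODE M21 held 28 of the 32 versioned identifiers. BLAST 2.17.0 (95% identity over 80% of the shorter transcript, 200 bases) found 1 near-identical copy, Gm15574 of Tnfrsf10b, at 0 FPKM. Promoter windows are from RefSeq. Alternatives changed the pseudocount, filter, scaling, variance model, threshold, replicate block and libraries. Some genes of the other lists are counted but not reported by name here. Figures used matplotlib 3.10.9.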

Additional observations from a re-analysis of the deposited data

How the results depend on the processing

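Over all genes, 304 were higher and 123 lower. Without the filter on the mean these counts were 70 and 15, with a mean of at least 5 FPKM 169 were higher, at an adjusted p under 0.1 the counts were 553 and 306, and with 1 library left out they were 44 to 224 and 15 to 59. Of the 32 genes, 3 were called higher and 1 lower. No gene was called without the filter, where 38986 genes are tested; 1 was called higher under quantile normalization, median-ratio scaling or no intensity trend, and 0 to 1 with 1 library left out. The count called lower was 0 with a pseudocount of 0.1 or 0.5, without the filter, without the trend and with any 1 library left out, and 2 at an adjusted p under 0.1. Bik was called in all but the fits without the filter or without a Zeb1-CKO library among those where it was fitted. The median log2 fold change was 0.09, and 0.14 with a mean of at least 5 FPKM (23 genes) or 0.061 under median-ratio scaling. Over all fitted genes the median was 0.023 in the main fit, 0.027 with that filter and 0.0002 under median-ratio scaling. Other p53 targets called higher were 4, and 1 without the filter and 0 to 2 with 1 library left out; other apoptosis genes called higher were 0, and 1 with a mean of at least 5 FPKM; immediate-early genes called higher were 1, and 0 to 1 with 1 library left out. The cause of the other changes was not tested.

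The sources used here do not say whether same-numbered libraries share a batch or litter, so the main fit had no pairing. Deviations of same-numbered libraries had a correlation of -0.12. With 2 libraries per genotype the crossed pairing gives 0.12 by construction, so this value cannot show whether the libraries were paired. With the replicate block, 155 genes were higher and 38 lower, of the 32 genes 1 was higher (Bik) and 0 lower, and 2 other p53 targets were higher. With the block on crossed pairing, chosen after seeing the data, 306 were higher and 149 lower, with 2 and 1 of the 32 genes, and 1 immediate-early gene was lower.

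Genes that changed sign were never called. With 1 library left out their log2 fold changes were -0.032 to 0.093 for Plk2, -0.17 to 0.13 for Trp53inp1, -0.22 to 0.25 for Bad, -0.32 to 0.032 for Bax, -0.68 to 0.40 for Bcl2l2, -0.26 to 0.066 for Xiap and -0.56 to 0.69 for Bok, and Bad was also at -0.032 under quantile normalization and -0.0092 under median-ratio scaling. Of 564 values of single genes under an alternative, 493 kept direction and call, 57 lost the call, 0 gained it and 14 changed sign. Depth limits genes of low level and short transcript, and the genes were not ranked by it.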
